A study of Mus musculus with 16 samples.

Results

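The cytosolic ribosomal protein genes were taken as the protein-coding mouse genes whose symbol starts with Rpl or Rps followed by a digit, together with Rpsa, Rplp0, Rplp1 and Rplp2, leaving out the Rps6k kinases and the pseudogenes marked -ps. This rule used symbols and annotation only and found 86 of the 53379 genes in the count files. By symbol 52 encode proteins of the large subunit or its paralogs and 33 those of the small subunit. The remaining gene, Rps19bp1, meets the rule by its symbol but encodes a protein that binds the small subunit protein RPS19 and is no subunit.

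RNA-seq libraries were made from green (GFP+) cells sorted at postnatal day 4 from the neocortex of mice whose strain the labels give as CD1 and the study's methods as a mix of C57BL/6 and CD1, in which mosaic analysis with double markers (MADM) labels sparse cells and ties colour to genotype. All groups carried MADM7-GT/TG (the MADM cassettes on chromosome 7), Emx1-cre (Cre recombinase in dorsal forebrain progenitors) and XGFAP-lacZ (lacZ under the human GFAP promoter). The labels gave 5 libraries of Eed+/+ astrocytes and 2 of Eed+/+ neurons from animals wild type for Eed, and 5 libraries of Eed-/- astrocytes and 3 of Eed-/- neurons from animals heterozygous for Eed (a subunit of PRC2, the Polycomb complex that methylates histone H3 at lysine 27). Astrocytes were sorted as GFP+/lacZ+ and neurons as GFP+/lacZ- cells, and 1 further library, whose title and cell type label disagree, entered no group. The Eed-/- cells thus lay among largely heterozygous tissue and the Eed+/+ cells among wild type tissue, and the neuron gate rests on the absence of lacZ.

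Each cytosolic ribosome has a small subunit, which reads the mRNA, and a large subunit, which joins the amino acids. Their proteins are needed in nearly equal numbers, and their mRNAs share a short pyrimidine-rich start, the 5' terminal oligopyrimidine (TOP) motif, through which the mTORC1 kinase controls their translation. Mammalian ribosomal protein genes are also known for their many processed pseudogenes, copies of the mRNA inserted elsewhere in the genome, so that many reads from these mRNAs match several places.

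Windows around annotated transcription starts, where the TOP motif lies, are shown here. The 30-base windows run from 10 bases before to 20 bases after the start in RefSeq (GRCm38.p6), on the gene's strand, and the capitals mark CTTTC, a letter run chosen after the sequences had been seen. Rpl35 and Rps27 were selected for holding it more than once, Rplp2 and Rpl38 for holding it at the start itself, and Rpl22l1 as a paralog without it.
Rpl35 (chr2:39005112-39005141, minus strand): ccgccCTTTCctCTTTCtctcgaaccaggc
Rps27 (chr3:90213629-90213658, minus strand): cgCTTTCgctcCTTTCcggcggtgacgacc
Rplp2 (chr7:141447641-141447670, plus strand): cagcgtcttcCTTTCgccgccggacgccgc
Rpl38 (chr11:114668570-114668599, plus strand): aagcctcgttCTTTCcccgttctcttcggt
Rpl22l1 (chr3:28805498-28805527, plus strand): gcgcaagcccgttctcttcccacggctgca
Of the 66 members with an entry, 16 (24.2%) held CTTTC in this window on the gene's strand, against 4.43% of 27025 genes. On the other strand it stood in 4.55% of the members and 4.31% of the genes. A match is a run of letters and not a measured TOP mRNA. CTTTC is not the TOP motif itself, and the window of Rpl22l1, without CTTTC, holds another run of pyrimidines.

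The second set of sequences bears on the counting. Rps27 on chromosome 3 and Rps27rt, a single-exon copy on chromosome 9, have coding regions of 255 bases that are identical at all 255 positions. Rps27l, a paralog on chromosome 9 that encodes a closely related small subunit protein, differs from them at 18 of the first 60 coding bases, which are capitals below.
Rps27 coding start: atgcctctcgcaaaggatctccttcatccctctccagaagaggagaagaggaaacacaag
Rps27rt coding start: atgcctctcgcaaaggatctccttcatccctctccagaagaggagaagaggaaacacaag
Rps27l coding start: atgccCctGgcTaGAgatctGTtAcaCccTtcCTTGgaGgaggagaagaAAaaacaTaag
Only uniquely aligned reads were counted (0 reads stood on the multimapping line of any file), so a read inside the shared part of Rps27 and Rps27rt counts for neither.

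Depth and alignment bear on every value that follows. Gene reads ranged from 211736 to 3178529 per labelled library. In 10 of the 15 at least 60% and at least 1000000 of the reads were uniquely aligned, called well-aligned here, and these held reads of 81 to 84 members each. The 5 others (Eed+/+ astrocyte replicate 3, Eed-/- astrocyte replicates 1, 3 and 4, and Eed+/+ neuron replicate 2) held reads of 52 to 78 members. They fall unevenly, on 3 of 5 Eed-/- astrocyte libraries but 1 of 5 Eed+/+ ones, so the counts, medians and members that the results turn on are also given without them. Reads of the whole Eed gene were 88, 204, 2, 85 and 41 in Eed+/+ astrocytes and 0, 26, 0, 0 and 14 in Eed-/- astrocytes, 121 and 26 in Eed+/+ neurons and 21, 74 and 53 in Eed-/- neurons, and a count over the whole gene does not separate its deleted part. The 10 astrocyte markers summed to between 4484 and 53126 scaled CPM in astrocyte libraries and to between 8292 and 14780 in neuron libraries, and the 10 neuron markers to between 3.46 and 3983 and between 1283 and 2814. Every well-aligned astrocyte library (20709 to 53126) lay above every neuron library in astrocyte markers, and the 3 astrocyte libraries below 8292 were poorly aligned. The neuron markers overlapped, with 254 to 2905 in well-aligned astrocyte and 1615 to 2814 in well-aligned neuron libraries. Both lists were detected in every group (Syt1, a synaptic vesicle protein gene, was at 0 in Eed+/+ neurons). Microglia markers summed to 10901 and 3618 scaled CPM in Eed-/- astrocyte replicates 1 and 3 and to at most 501 elsewhere, and erythroid markers to 5857 and 8117 in Eed-/- astrocyte replicates 1 and 4. Those 3 libraries are also the poorly aligned ones of their group, and the part of other cells in the results was not tested.

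Ribosomal protein genes took between 0.793% and 2.22% of gene reads per labelled library. In Eed+/+ astrocytes the share was 1.05%, 0.921%, 1.65%, 1.37% and 1.04% in replicates 1 to 5, with a mean of 1.21% ± 0.297 (SD, n = 5). In Eed-/- astrocytes it was 1.33%, 0.893%, 2.16%, 1.49% and 1.32%, with a mean of 1.44% ± 0.462 (SD, n = 5). The groups of astrocytes overlapped, and their highest values both came from poorly aligned libraries. Mitochondrial genome reads made up 30.0% and 33.9% of gene reads in Eed-/- astrocyte replicates 3 and 4. In the other labelled libraries they made up 2.97% to 12.6%. Without these reads the share was 3.09% and 2.25% in those replicates and 0.971% to 1.89% in the other astrocyte libraries. Eed+/+ neurons had 1.70% and 0.793%, the latter in the poorly aligned library, and Eed-/- neurons 1.65%, 2.22% and 1.26% (mean 1.71% ± 0.486, SD, n = 3). In bulk libraries fewer cells of a type and less RNA per cell cannot be told apart. The share is a description for which no test was made.

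**Figure D1:**
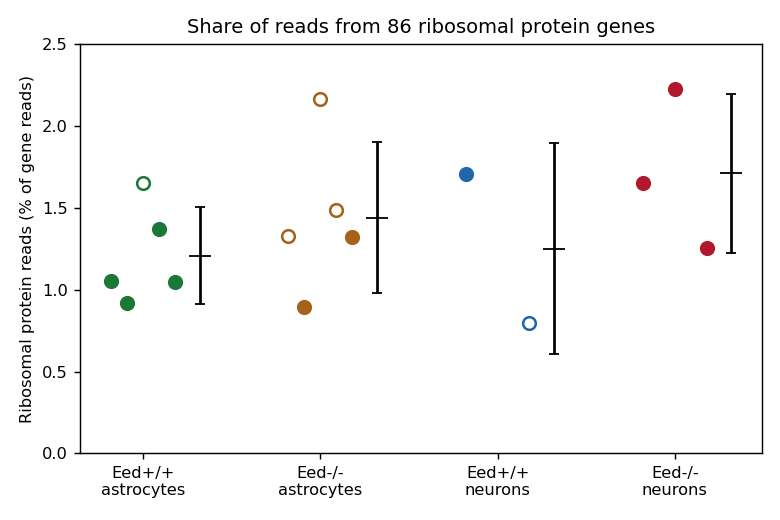
The plot gives the percentage of gene reads from 86 ribosomal protein genes (vertical axis) for each library of the 4 groups, with filled points for well-aligned and open points for poorly aligned libraries. The bars at the right of each group show the mean and SD. Well-aligned astrocyte libraries lie between 0.893% and 1.37%, and well-aligned neuron libraries between 1.26% and 2.22%.

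Among well-aligned libraries the share was 1.10% ± 0.201 (SD, n = 6) in astrocytes and 1.71% ± 0.397 (SD, n = 4) in neurons, with ranges that overlapped between 1.26% and 1.37%. Within these libraries the genotypes lay side by side, with a mean of 1.10% ± 0.190 (SD, n = 4) for Eed+/+ astrocytes beside 1.11% ± 0.305 (SD, n = 2) for Eed-/- ones. Both subunits contributed nearly equally. Reads of large subunit genes were 1.06 ± 0.0741 times (SD, n = 6) those of small subunit genes in well-aligned astrocytes and 1.01 ± 0.0280 times (SD, n = 4) in well-aligned neurons. The poorly aligned libraries spread from 0.487 in Eed+/+ neuron replicate 2 to 1.48 in Eed-/- astrocyte replicate 1. The 284 genes with an -ps symbol took between 1.07% and 7.09% of the reads of members and pseudogenes together, the highest again in Eed+/+ neuron replicate 2.

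Levels of single members are given per length, as scaled CPM (counts per 1000000 gene reads, scaled by the trimmed mean of M values) per kilobase of exon, averaged over the 4 groups. The most highly counted gene was Rplp1, which encodes an acidic protein of the large subunit stalk that binds elongation factors, at 1380. Rpl8 (578), Rpl32 (502) and Rpl4 (481), which encode core proteins of the large subunit, were also among the highest. At the other end Rpl23a stood at 2.60, Rpl5 at 1.47, Rpl3l at 0.850 and Rpl10l and Rpl39l at 0. RPL5 and RPL11 (7.82) form a complex with 5S rRNA that can bind the p53 regulator MDM2. Rps6, whose protein is the classical target of the S6 kinases, had only 4.65. For Rpl10l and Rpl39l, 0 of 20727667 labelled gene reads were found, which allows up to 0.145 CPM. They are paralogs of Rpl10 and Rpl39 best known from the testis. Rpl3l, a striated muscle paralog of Rpl3, had 3 reads in each Eed+/+ neuron library and 0 elsewhere.

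The order of the members was shared between libraries. Over the 84 members with reads, Spearman's rho of per-kilobase levels ranged from 0.882 to 0.977 (median 0.930) for the 45 pairs of well-aligned libraries, with a median of 0.929 for the 24 pairs across cell types. It ranged from 0.517 to 0.887 for the 60 pairs with a poorly aligned library. The points share gene length and the sequence that can be aligned uniquely. These are correlations across genes, which are not independent replicates.

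The counted level followed how much of a gene's own sequence is found in no other gene. For each gene the share of the 50-base words of its coding region that occur in no other annotated transcript was computed. Spearman's rho with the level was 0.570 over 86 members, and Pearson's r with the log2 level (0.1 added) was 0.284. The 26 members with no such word had a median of 12.6 scaled CPM per kilobase, the 29 with some but under 20% had 25.7, and the 31 with at least 20% had 131. The last group held 80.6% of all member reads. Rpl8 (91.3% own words) and Rpl4 (79.8%) stood high, and Rpl5, Rps6 and Rpl11 (0% each) low. Comparisons between groups below set each member against itself, at its own alignable sequence, also where medians or counts over members are given.

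**Figure D2:**
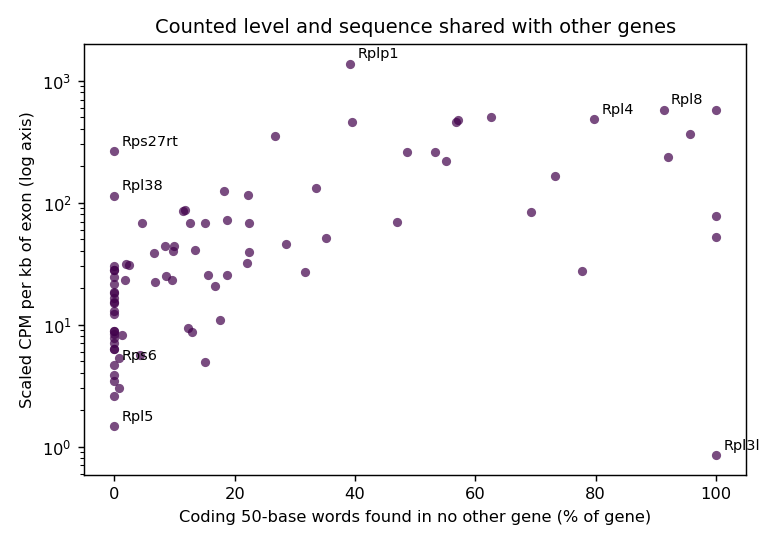
Each point is 1 of 84 ribosomal protein genes with reads, with the percentage of its coding 50-base words found in no other gene on the horizontal axis and its scaled CPM per kilobase (mean over 4 groups, log axis) on the vertical axis. Rplp1 and Rpl8 lie at the top; Rpl38 and Rps27rt stand above other members with 0% own words, and Rpl3l is low despite 100%.

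Genotype was compared first in astrocytes. No member passed edgeR's quasi-likelihood test at an adjusted p of 0.05 (0 of 73 tested, with Benjamini-Hochberg adjustment over 8956 genes, of which 0% were called). At an unadjusted p under 0.05 edgeR found 1 member, lower in Eed-/-, against 1.21% of all genes, while DESeq2 and limma-voom called 0 members (0.0112% and 0% of genes) and found 3 and 0 at an unadjusted p under 0.05, against 3.35% and 4.13% of genes. In well-aligned libraries edgeR found 2 of 80 members there (Rps2 and Rps19bp1, both lower in Eed-/-), against 4.04% of genes. The median log2 fold change (Eed-/- minus Eed+/+) was 0.16 for the members and -0.54 for all genes, and in well-aligned libraries -0.01 and -0.02. The libraries fall into 2 runs of library numbers. Within the first run the medians were 0.37 and -0.70, and within the second -0.43 and -0.68, so the sign for the members differed between the runs. Leaving out 1 library of the first run, poorly aligned Eed-/- replicate 3, also turned it, with a median of -0.34 for the members and -0.59 for all genes, and limma-voom gave -0.012 with all libraries.

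The member with the smallest p was Rpl21, which encodes a large subunit protein and has 15 pseudogenes by symbol and no coding word of its own. It stood at 28.5, 20.6, 105, 13.9 and 20.2 scaled CPM in Eed+/+ astrocytes and at 1.73, 4.67, 2.99, 0 and 5.09 in Eed-/- astrocytes. Every Eed-/- astrocyte library was below every Eed+/+ one, and the highest value came from the poorly aligned Eed+/+ replicate 3. The log2 fold change was -3.56 (SE 1.78, adjusted p = 1.00 over all genes), and -2.06 (SE 1.22) in well-aligned libraries. In neurons its values were 22.1 and 9.55 in Eed+/+ and 27.6, 48.6 and 9.53 in Eed-/-, which overlapped. A two-sided exact permutation test of the group means in astrocytes gave p = 0.00794, the smallest that 5 against 5 can give.

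The same two-sided exact test, run on every gene that edgeR tested in astrocytes and not adjusted, gave p under 0.05 with lower values in Eed-/- for 4 of 73 members (Rpl21, Rps27a, Rpl31 and Rps25), against 9.13% of genes. With higher values it did so for 0 of 73, against 0.112%. These tests used all 10 libraries, since an exact test of 4 against 2 well-aligned ones cannot go below p = 0.0667. Rps27a encodes a fusion of ubiquitin with a small subunit protein. It stood at 15.3, 12, 11.3, 27.4 and 11.8 scaled CPM in Eed+/+ and 5.2, 6.01, 8.98, 0 and 11.2 in Eed-/- astrocytes, which did not overlap by a narrow margin. Rpl21 and Rps27a were the only members tested by edgeR whose astrocyte groups did not overlap downward (2 of 73, against 1.71% of genes), and none did so upward (0 of 73, against 0.0112%). Rpl31 stood at a mean of 19.2 ± 4.19 (SD, n = 5) against 5.76 ± 5.39 (SD, n = 5). The 3 poorly aligned Eed-/- libraries held its lowest values, 0 to 3.21, and in well-aligned libraries the means were 18.9 and 11.3, with a log2 fold change of -0.73 (SE 1.11). Rps25 stood at 74.2 ± 15.3 against 44.9 ± 21.2 (SD, n = 5 each), and in well-aligned libraries at 72.0 and 58.2, a log2 fold change of -0.29 (SE 0.46). For Rps27a the well-aligned means were 16.6 and 8.61, with -0.94 (SE 1.23).

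Rps19bp1 and Rps2 were split between libraries. Rps19bp1 stood at 106, 127, 0, 97.8 and 140 scaled CPM in Eed+/+ astrocytes and 0, 75.4, 0, 0 and 23.4 in Eed-/- astrocytes. All 4 astrocyte libraries at 0 were poorly aligned, and 0 reads in them allow up to 6.28 to 14.2 CPM. The log2 fold change of Rps19bp1, -2.18 (SE 1.53), was -1.23 (SE 0.53, adjusted p = 1.00) in the well-aligned libraries. Over both cell types its values in the 5 poorly aligned libraries, 0 to 9.55, lay below all well-aligned ones, 23.4 to 140. Rps2, a small subunit protein gene with 10 pseudogenes by symbol, stood at 16.4, 254, 215, 7.42 and 224 in Eed+/+ astrocytes and 0, 6.68, 8.98, 248 and 16.3 in Eed-/- astrocytes, while the 5 neuron libraries stood between 13.3 and 21.6. High values thus occurred in both genotypes of astrocytes and in well and poorly aligned libraries alike, and no library stood between 21.6 and 215. The part of alignment in these values was not tested.

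The members with the smallest p in the other direction did not pass either. Rpl36a, a large subunit protein gene, had a log2 fold change of 2.32 (SE 1.64) in Eed-/- astrocytes, with 17.9, 7.5, 3.77, 23.7 and 4.17 scaled CPM in Eed+/+ and 5.2, 6.01, 47.9, 174 and 17.3 in Eed-/- libraries. Its 2 highest values came from poorly aligned libraries, and in well-aligned ones the sign was negative (-0.19). Rps27rt had 1.68 (SE 1.49) and Rplp1 0.89 (SE 1.03), each with an adjusted p of 1.00 in edgeR.

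The stalk proteins, which recruit translation factors, gave small values with wide errors. Rplp0, the base of the stalk, stood at 812 ± 298 scaled CPM in Eed+/+ astrocytes and 928 ± 403 with Eed lost (SD, n = 5 each), a log2 fold change of 0.30 (SE 0.98). Rplp1 stood at 484 ± 80.9 and 831 ± 763, the latter with 2173 in poorly aligned replicate 3 alone. Rplp2 stood at 307 ± 90.7 and 211 ± 107, a log2 fold change of -0.48 (SE 1.20). The SD of both groups exceeded the difference of the means for Rplp0, and for Rplp1 that of the Eed-/- group did. In well-aligned libraries the log2 fold changes were -0.28 (SE 0.37), 0.11 (SE 0.31) and -0.19 (SE 0.32) for Rplp0, Rplp1 and Rplp2, so the sign for Rplp0 turned.

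Subunit genes tied to human disease or to signalling did not pass the test either. Rps19 and Rps14, known from Diamond-Blackfan anaemia and the 5q- syndrome, had log2 fold changes of -0.16 (SE 1.16) and 0.36 (SE 1.05) in astrocytes. Rpl38, linked to translation of Hox mRNAs, stood at 68.0 ± 18 scaled CPM in Eed+/+ astrocytes and 46.3 ± 20.7 with Eed lost (SD, n = 5 each), a log2 fold change of -0.46 (SE 1.47) that was -0.33 (SE 0.47) in well-aligned libraries. Rpl13a had 0.30 (SE 1.49), Rpl41, the shortest of the ribosomal proteins, 0.18 (SE 1.11), Rpl23 0.13 (SE 1.45) and Rpsa, the laminin receptor homologue, -0.13 (SE 1.57). Rpl11 had 1.20 (SE 1.61), resting on 88.3 scaled CPM in poorly aligned Eed-/- replicate 1 against at most 19.5 in the other 9 astrocyte libraries. Rps6 stood at 4.58 ± 2.38 and 5.07 ± 8.40, and Rpl5 at 10.1 ± 7.99 and 2.83 ± 3.95 (SD, n = 5 each), and neither had enough reads for the test in astrocytes.

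**Figure D3:**
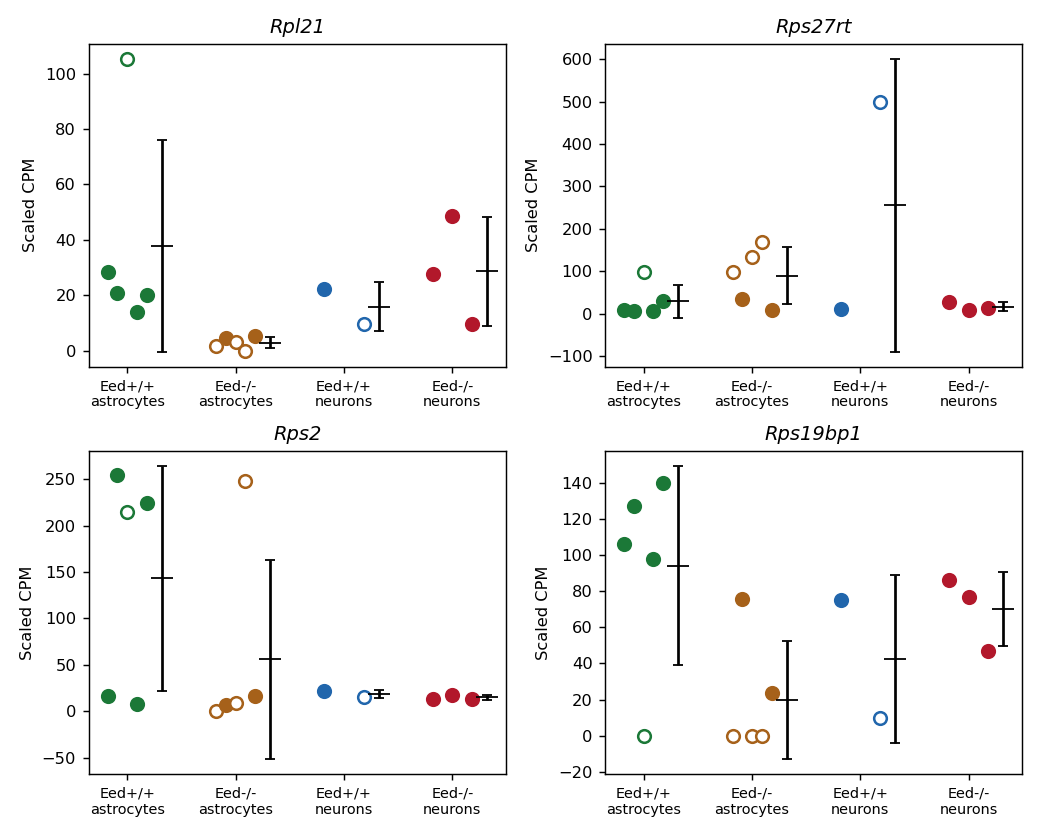
The 4 panels give scaled CPM per library for Rpl21, Rps27rt, Rps2 and Rps19bp1 in the 4 groups, with filled points for well-aligned and open points for poorly aligned libraries and bars for mean and SD. Rpl21 is at most 5.09 in Eed-/- astrocytes, Rps27rt reaches 500 in the poorly aligned Eed+/+ neuron library, and Rps2 is over 200 in 4 astrocyte libraries.

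In neurons no member passed the test in edgeR (0 of 81 tested, 0% of 11862 genes called), and 1 did at an unadjusted p under 0.05 against 7.27% of genes. DESeq2 and limma-voom called 0 members (0.219% and 0% of genes) and found 2 and 4 at an unadjusted p under 0.05, against 9.46% and 7.63% of genes. The median log2 fold change (Eed-/- minus Eed+/+) was 0.54 for the members and 0.15 for all genes, and 0.05 and 0.07 in well-aligned libraries, which leave 1 Eed+/+ library against 3. Without Eed+/+ neuron replicate 1, so that poorly aligned replicate 2 alone stood for Eed+/+, 26 of 81 members passed, 25 of them higher in Eed-/-, against 20.6% of 12635 genes. With a single Eed+/+ library the spread in a fit comes from the Eed-/- neurons alone, and that library is assumed to vary like them. Without replicate 2 none of 81 did in edgeR (0.00781% of genes), with 0 at an unadjusted p under 0.05 against 2.52%. Rps27rt alone passed with no filter on low counts (1 of 84, against 0.536% of genes) and without Eed-/- neuron replicate 1 (1 of 81, against 0.13%).

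The member behind the unadjusted call was Rps27rt, at 11.9 and 500 scaled CPM in Eed+/+ neurons and 28.4, 8.78 and 14.6 in Eed-/- neurons. Its log2 fold change was -4.06 (SE 1.10, adjusted p = 0.644) and 0.48 (SE 0.94, adjusted p = 1.00) in well-aligned libraries, again with 1 Eed+/+ library. The value of 500 was that of the poorly aligned library. In all 5 poorly aligned libraries the gene stood at 97.9 to 500, and in all 10 well-aligned ones at 6.38 to 36.0, so those sets did not overlap. Rps27, with the same coding bases, stood at 16.2 and 0 in Eed+/+ neurons and 9.45, 20.7 and 8.26 in Eed-/- neurons, and in astrocytes between 0.668 and 20.4 but for 218 in Eed-/- replicate 3. Rps27l stood at 178 and 57.3 in Eed+/+ neurons and at 214, 282 and 131 in Eed-/- neurons. Its values did not follow those of Rps27rt.

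Members whose Eed-/- neuron values all exceeded both Eed+/+ values were Rpl3, Rpl7l1, Rpl13 and Rpl15 (4 of 81, against 15.6% of genes), and none was lower throughout (0 of 81, against 7.81%). Rpl3, near the peptidyl transferase centre, stood at 8.10 and 0 against 18.1, 36.2 and 24.8 scaled CPM. Rpl15 stood at 56.2 and 3.18 against 72.5, 97.6 and 81.3. Among members with the smallest p in edgeR in each direction were Rpl26 (log2 fold change 1.48, SE 0.77) and Rpl29 (1.38, SE 0.84), higher in Eed-/-, and Rps26 (-0.97, SE 0.70) and Rpl36al (-1.20, SE 0.91), with adjusted p from 0.711 to 0.764. Rps26 stood at 487 and 1366 against 433, 629 and 492, so that its sign rests on poorly aligned Eed+/+ replicate 2. Without that replicate Rpl26 and Rpl29 had log2 fold changes of 0.87 and 0.90, and without Eed+/+ replicate 1 they had 2.99 and 2.60. An exact permutation test of 2 against 3 cannot go below p = 0.1.

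Astrocytes and neurons were compared within each genotype and over both. In edgeR 0 of 82 members passed in Eed+/+ cells (0.00748% of 13367 genes were called, at an unadjusted p under 0.05 1 member against 2.29%), and 0 of 82 in Eed-/- cells (0.0598%, at an unadjusted p under 0.05 0 members against 7%). Over both genotypes 0 of 82 passed (0.015%), with 0 at an unadjusted p under 0.05 against 5.51%. DESeq2 called 0 members in each of the 3 (0.0598%, 0.0898% and 0.0374% of genes), and at an unadjusted p under 0.05 it found 2, 3 and 1, against 3.33%, 5.58% and 5.92%. Limma-voom likewise called 0 (0%, 0.0374% and 0%) and at an unadjusted p under 0.05 found 1, 3 and 0, against 7.49%, 13.6% and 13.1%. The median log2 fold change (astrocytes minus neurons) was 0.22 in Eed+/+ cells, -0.45 in Eed-/- cells and -0.14 over both, against 0.08, -0.72 and -0.34 for all genes. The sign in Eed+/+ cells rested on the poorly aligned neuron replicate 2, as the median was -0.42 without it and 2.07 without replicate 1, and over both genotypes it was -0.43 and 0.77. In well-aligned libraries the medians were -0.47 and -0.49 within the genotypes.

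Members split between libraries were again among those with the smallest p in each direction. Rps2 had log2 fold changes of 2.92 (SE 1.95) in Eed+/+ cells, 1.88 (SE 1.54) in Eed-/- cells and 2.40 (SE 1.25) over both, and in Eed-/- cells the sign rested on poorly aligned astrocyte replicate 4 (-0.88 without it). Rps27rt had -3.09 (SE 1.51) in Eed+/+ cells and 2.37 (SE 1.57) in Eed-/- cells, and 0.076 (SE 1.45) and 0.41 (SE 1.17) in well-aligned libraries. Rpl21 had -3.17 (SE 1.67), Rps27a -2.24 (SE 1.66) and Rps27 1.91 (SE 1.76) in Eed-/- cells. Over both genotypes Rpl12 had -1.49 (SE 1.25), Rps26 -0.96 (SE 0.82), Rps9 -0.80 (SE 0.75), Rplp0 0.55 (SE 0.81) and Rpl34 0.69 (SE 1.03). Their adjusted p lay between 0.758 and 1.00 (edgeR).

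In well-aligned libraries most members had lower values in astrocytes, and the median of all genes was also lower there. The median log2 fold change over both genotypes was -0.48 against -0.16 for all genes, and 9 of 82 members were positive. With limma-voom on the same libraries it was -0.48 against -0.33, so the distance from all genes was smaller. The counts that follow come from the edgeR fit to these libraries, which holds 1 Eed+/+ neuron library. In this fit 0 members passed the test (0% of 14445 genes called), and 5 did at an unadjusted p under 0.05 in the direction of lower in astrocytes, against 4.28% of genes. Those 5 were Rps26, Rpl8, Rpl13a, Rpl39 and Rpl37, with log2 fold changes of -0.75, -0.72, -0.88, -0.73 and -0.67 and adjusted p from 0.576 to 0.646 (edgeR). Means of scaled CPM were lower in astrocytes than in neurons for 77 of 86 members, and for 26 of the 31 members with at least 20% own words. The share of all genes lower in astrocytes is not given here, and members counted in the same libraries are not independent.

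Rpl8, whose protein lies near the peptidyl transferase centre, stood at 635 ± 109 scaled CPM (SD, n = 6) in well-aligned astrocytes and 1022 ± 207 (SD, n = 4) in neurons. Rps26, at the mRNA exit channel, stood at 301 ± 75.2 (SD, n = 6) and 510 ± 83.8 (SD, n = 4). Rpl39, a short protein of the exit tunnel wall, stood at 77.4 ± 11.4 (SD, n = 6) and 122 ± 24.2 (SD, n = 4). All 6 astrocyte libraries lay below all 4 neuron libraries for 8 of 82 members tested (Rpl8, Rpl13a, Rpl17, Rpl23, Rpl37, Rpl39, Rps15a and Rps26), against 2.12% of genes, and above all of them for 0, against 1.44%. In these libraries the astrocyte marker sums, given above, lay higher in all 6 astrocyte libraries than in all 4 neuron libraries, and the neuron marker sums overlapped. The medians of the astrocyte and neuron marker lists were 1.49 and -0.62 (log2, astrocytes minus neurons). Oligodendrocyte lineage markers summed to between 1330 and 4379 scaled CPM in those astrocyte libraries and between 1987 and 3769 in those neuron libraries. In each of these neuron libraries the astrocyte marker sum exceeded the neuron marker sum. The part of other cells in the levels of the members was not tested. Since the neurons all came from the first run of library numbers, the run and the cell type cannot be fully told apart.

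**Figure D4:**
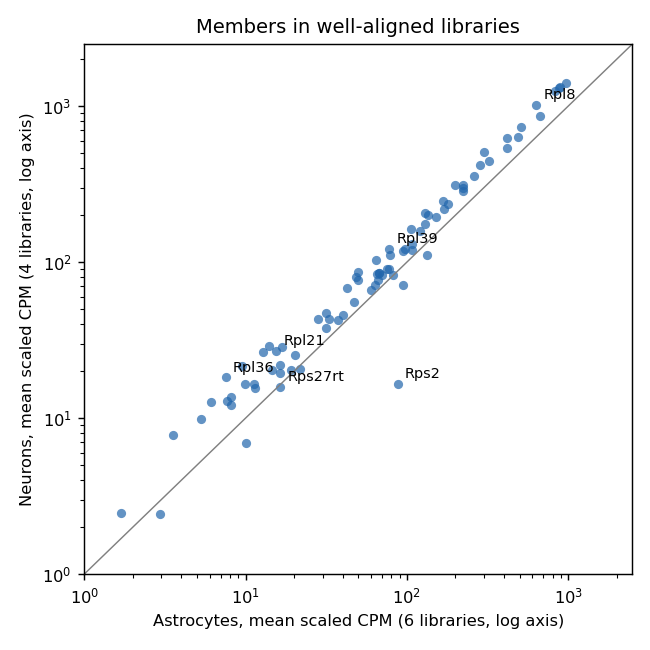
Each point is a ribosomal protein gene, with its mean scaled CPM in 6 well-aligned astrocyte libraries on the horizontal and in 4 well-aligned neuron libraries on the vertical log axis, and the grey line marks equality. Of the 86 members, 77 are higher in neurons, a count for which no share of all genes is given. Rps2 is the clear departure at 87.5 in astrocytes and 16.6 in neurons.

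**Figure D5:**
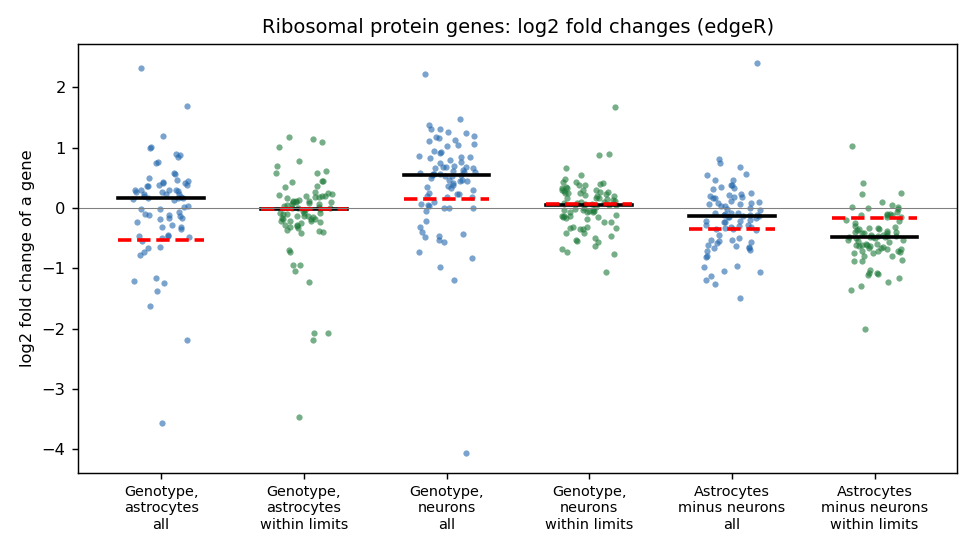
Points are log2 fold changes of the ribosomal protein genes tested by edgeR for genotype in astrocytes, genotype in neurons and astrocytes minus neurons. Blue points use all labelled libraries of the cell types compared, and green points the well-aligned ones among them. Black lines mark the median of the members and dashed red lines that of all genes, which lie together for genotype once the poorly aligned libraries are left out (0.05 and 0.07 in neurons).

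The interaction asked whether the effect of Eed differed between the cell types. In edgeR 0 of 82 members passed (0.0524% of genes called), and 1 did at an unadjusted p under 0.05 against 3.61%. The member was Rps27rt, with a log2 difference of 5.46 (SE 2.22, adjusted p = 0.917) that was 0.34 (SE 1.85) in well-aligned libraries. Other members with the smallest p in each direction were, on the negative side, Rpl21 at -4.38 (SE 2.75), Rps19bp1 at -2.90 (SE 2.35), Rpl28 at -2.64 (SE 2.39), and on the positive side Rps27 at 2.34 (SE 2.47) and Rps26 at 1.23 (SE 1.69). The value for Rpl28 was -10.8 without Eed+/+ neuron replicate 1 and -1.69 without replicate 2. DESeq2 and limma-voom called 0 members (0.0374% and 0% of genes) and at an unadjusted p under 0.05 found 2 and 4, against 3.45% and 10.6%.

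Of the paralogs, Rpl22l1, Rpl7l1 and Rpl36al are set beside their parents. Rpl22l1, whose parent Rpl22 encodes a large subunit protein that binds RNA, stood at 46.5 ± 13.2 scaled CPM (SD, n = 5) in Eed+/+ astrocytes, where Rpl22 stood at 232 ± 73.9. The Eed-/- astrocytes had 31.7 ± 30.5 (SD, n = 5) of Rpl22l1 and 214 ± 130 of Rpl22. Rpl22l1 was at 0 in 2 of the 3 poorly aligned Eed-/- astrocyte libraries. Rpl7l1 stood at 142, 122, 113, 139 and 61.2 in Eed+/+ and at 31.2, 158, 0, 0 and 26.5 in Eed-/- astrocytes, and overlapped. Rpl36al stood at 11.9 ± 3.24 and Rpl36a at 11.4 ± 8.93 in Eed+/+ astrocytes (SD, n = 5 each). Neither has a coding word of its own. Rpl7, the parent of Rpl7l1, stood at 170 ± 33.4, Rpl10 at 20.4 ± 8.32, Rpl39 at 82.8 ± 21.0 and Rps4x at 74.1 ± 16.1 in Eed+/+ astrocytes (SD, n = 5 each). In Eed-/- astrocytes these were 215 ± 116, 25.2 ± 28.5, 103 ± 110 and 79.6 ± 60.9, and the SD of the Eed-/- group exceeded each difference. In well-aligned libraries the log2 fold changes were -0.0032 (SE 0.58) for Rpl22l1, -0.15 (SE 0.40) for Rpl22 and -0.31 (SE 0.67) for Rpl7l1. Rps4l is a transcribed pseudogene in the annotation and no member.

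Related genes outside the rule were tested beside the members. Fau, which encodes a ubiquitin-like fusion of a small subunit protein, and Rack1, a scaffold of the small subunit, did not pass in any of the 6 comparisons. None of 78 mitochondrial ribosomal proteins, 17 elongation and other TOP mRNA genes, 24 initiation factors, 50 ribosome biogenesis genes or 18 mTORC1 and TOP regulators passed in either direction in edgeR's 6 comparisons. In astrocytes 75, 15, 23, 45 and 15 of these were tested, with 1, 0, 0, 1 and 0 at an unadjusted p under 0.05 and medians of -0.80, -0.24, -0.48, -0.71 and -0.44 beside -0.54 for all genes. In well-aligned libraries the log2 fold change of astrocytes minus neurons was negative for 17 of 17 elongation and other TOP mRNA genes (median -0.38). It was negative for 42 of 50 biogenesis genes (-0.52) and 21 of 24 initiation factors (-0.44). The same held for 14 of 18 mTORC1 and TOP regulators (-0.39) and 61 of 77 mitochondrial ribosomal proteins (-0.31). The median of all genes was -0.16, and the share of all genes with a negative value is not given here.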

How the data were processed

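The deposited files hold raw read counts per gene, which the authors made with STAR (aligned to GRCm38/mm10, named in the submitters' processing notes) and did not normalize. Which annotation release they counted against was not stated in the material read here. The libraries follow the Smart-Seq v2 protocol, and since 45.2% to 52.7% of stranded reads lay on the first strand, the unstranded column was used. Without strand, overlapping and antisense genes cannot be told apart. Lines of totals stayed out. Symbols, types and lengths came from GENCODE mouse release M21, with 53274 identifiers matched and 105 not. The deposited tables held 0 columns of other samples.

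Genes were tested with edgeR 4.0.16 (R 4.3.3; quasi-likelihood, TMM, filterByExpr, robust, two-sided, Benjamini-Hochberg over all genes tested, threshold 0.05), checked on simulated counts. The check on simulated counts had to pass only at a low spread between libraries (dispersion 0.05). It does not show how small a change these data could reveal. Genotype was fitted within each cell type, and cell type and interaction over all 15 labelled libraries. Group means in scaled CPM were compared by exact permutation tests (scipy 1.17.1), and limma 3.58.1 and DESeq2 1.42.0 served as alternatives. Individual animals were the replicates per the labels, and whether an animal gave both an astrocyte and a neuron library was not stated. Own words were 50-base words of the longest open reading frame. Sequences came from RefSeq (GRCm38.p6), in which 66 of 86 members had a promoter entry. The members, gene lists and named genes (up to 12 per direction past the threshold, otherwise 3 with the smallest p, plus paralogs, listed subunits and the extremes of level) were chosen with earlier results of these data known. The well-aligned limits follow grounds for exclusion the study names for its embryonic libraries. For the present set the study removed some samples by their place in a principal component analysis or weak correlation with replicates. Which ones was not stated in its methods, and the main fits here keep all 15 labelled libraries. Floors (3 counts) cover counting error only, since reads without molecular identifiers are not independent molecules. Values of 2 of the genes examined are not reported here. Alternatives were other tests, scalings, filters, library sets, the replicate block and the run of library numbers. Moves of medians were set against the SD, within groups, of the log2 summed scaled CPM of the members. That measure was adopted after a first one, the spread of the members' median, had proved too wide to register any move.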

Additional observations from a re-analysis of the deposited data

Results flagged for a closer look

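In 7 of 36 checks of a group of 5 astrocyte libraries, 1 library stood far from the other 4 by Dixon's criterion, where chance gives about 1 in 20. The checks covered 16 genes, chosen after their values had been seen, and 2 read measures (the share of ribosomal protein reads and the ratio of large to small subunit reads) in both groups. In Eed+/+ astrocytes Rpl21 at 105 scaled CPM and Rps27rt at 97.9 came from poorly aligned replicate 3, and Rps27a at 27.4 from well-aligned replicate 4. In Eed-/- astrocytes Rps2 at 248 and Rpl36a at 174 came from poorly aligned replicate 4, Rps27 at 218 from poorly aligned replicate 3 and Rpl7l1 at 158 from well-aligned replicate 2.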

How the results depend on the processing

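The 6 counts of members called stayed at 0 under the alternatives tried except in neurons, where 1 member passed with no filter on low counts (0.536% of genes) and 0 to 26 passed when 1 library was left out (26 without Eed+/+ neuron replicate 1, against 20.6% of genes, and 1 without Eed-/- neuron replicate 1, against 0.13%). The share of ribosomal protein reads moved by less than 1 SD under each of its alternatives in 3 of the 4 groups. In the fourth, Eed+/+ neurons, leaving out 1 of 2 libraries cannot move it by 1 SD, and it became 0.793% or 1.70%. The medians below are log2 values of the members minus those of all genes. In well-aligned libraries they became 0.0081 for genotype in astrocytes (main 0.70), -0.46 for cell type in Eed+/+ (0.14), -0.32 in Eed-/- (0.27) and -0.32 over both (0.20). On those libraries DESeq2 gave 0.0033, -0.43, -0.32 and -0.32, and limma-voom 0.17, -0.29, -0.15 and -0.15 (both added after the data were seen), so their size depended on the test. Leaving out 1 library gave 0.25 to 1.00 for genotype in astrocytes, -0.012 to 1.30 in neurons, -0.42 to 1.29 for cell type in Eed+/+, -0.09 to 0.59 in Eed-/-, -0.07 to 0.60 over both and -1.03 to 0.61 for the interaction, with both ends for neurons, Eed+/+ cell type and interaction set by the Eed+/+ neuron libraries. The cause was not tested.

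The same replicate numbers did not pair the libraries (correlations of deviations from -0.23 to 0.14). With the replicate block 0 members were called in each comparison, and the medians became 1.49 for genotype in astrocytes, 0.82 in neurons, 1.76 for cell type in Eed-/-, 0.96 over both and 1.31 for the interaction. The block also turned Rps2 to -1.97 (cell type in Eed-/-) and -0.080 (over both) and Rps27 to -1.48 (cell type in Eed-/-) and -2.46 (interaction).

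Single members, none of which passed in the main test, turned direction in 43 of 900 checks. In well-aligned libraries, with edgeR and then DESeq2, these were Rpl36a for genotype in astrocytes (-0.19, -0.14), Rps27rt (0.48, 0.49) and Rps26 (0.064, 0.066) for genotype in neurons, Rps27rt for cell type in Eed+/+ (0.076, 0.16), Rps2 (-0.42, -0.34) and Rps27 (-0.34, -0.25) for cell type in Eed-/-, Rplp0 over both (-0.35, -0.29), and Rplp0 for cell type in Eed+/+ with edgeR (-0.013). With limma-voom on well-aligned libraries they were Rpl36a (-0.54), Rps27rt for genotype in neurons (0.61), Rplp0 for cell type in Eed+/+ (-0.14), Rps2 (-0.51) and Rps27 (-1.45) for cell type in Eed-/-, Rps2 (-0.050), Rplp0 (-0.44) and Rpl34 (-0.35) over both and Rps27 for the interaction (-0.38). With limma-voom on all libraries they were Rpl36a (-0.10), Rps2 (-0.42), Rps27 (-0.12) for cell type in Eed-/- and Rps27 (-0.15) for the interaction. With the run of library numbers as covariate Rps2 gave -0.082 (cell type in Eed-/-) and Rpl34 -0.078 (over both), and within the first run -1.50 and -0.040. Leaving out 1 library gave -5.00 to 0.48 for Rps27rt and -1.52 to 0.064 for Rps26 (genotype in neurons), -4.26 to 1.30 for Rps27rt (cell type in Eed+/+), -0.88 to 2.16 for Rps2 and -0.94 to 2.45 for Rps27 (cell type in Eed-/-), and -4.15 to 3.22 for Rps27 (interaction).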

Other observations

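The library without a group, labelled Eed-/- and named for both cell types, had 221456 gene reads, and 17.8% of its reads were uniquely aligned. It held reads of 37 members, which took 0.654% of its gene reads (exact 95% interval 0.621% to 0.688%), with 0.864 large subunit reads per small subunit read.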
